A study of Mus musculus with 12 samples.

Results

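The 41 genes described here are the glutathione and antioxidant genes of mouse hepatocytes, 41 of the 54839 features counted in the series. They were taken by gene symbol, with no threshold on a measured value: 22 glutathione transferases, 5 genes of glutathione synthesis, supply and turnover, 3 of glutathione recycling and peroxide removal, 5 of NADPH supply and 6 other genes that respond to the transcription factor NRF2. The data are bulk RNA-seq of hepatocytes sorted from male, heterozygous p16-Tom mice (C57BL/6, p16-CreERT2 crossed with R26-CAG-LSL-tdTomato-WPRE), in 4 groups of 3 libraries. In these mice the p16 promoter drives a Cre recombinase that works only in the presence of tamoxifen, so that a cell in which this promoter was active when tamoxifen was given stays red (Tom+), whereas a cell without the reporter is Tom-. The study compared Tom+ with Tom- hepatocytes in fibrotic and in control liver. The groups are Tom- oil and Tom+ oil, from mice given corn oil, and Tom- CCl4 and Tom+ CCl4, from mice given carbon tetrachloride, a solvent that hepatocytes turn into toxic radicals. CCl4 was diluted to 20% in corn oil and injected intraperitoneally every 3 days at 1 mL/kg for 4 weeks, and mice of all groups received tamoxifen at 80 mg/kg. The age of the mice is not given in the sources used here. Cells were freed with collagenase and pelleted at low speed, and live DAPI- cells were sorted by the reporter. The sources do not say that the libraries of a group came from separate animals, so p-values measure only the spread between these libraries.

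Glutathione is a small peptide whose thiol takes up oxidants and reactive chemicals. It is made in the cytosol from cysteine, glutamate and glycine, it is joined to electrophiles by glutathione transferases, and it is oxidised by peroxidases and returned to its reduced form at the cost of NADPH. NRF2, which KEAP1 keeps low in resting cells, enters the nucleus after oxidative or electrophilic stress and binds antioxidant response elements near many of these genes. In the liver the transferases are abundant in hepatocytes, and several of them are higher around the central vein, where CCl4 is activated, than around the portal tract.

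Gstm1 and Gstm3, the mu-class transferases that the study measured by PCR, are close in sequence. The study's primers for them are printed because of this, with the run that both forward primers hold in capitals.
Gstm1 forward: cCAAACCTGAGGGACTTCCTGG
Gstm3 forward: CAAACCTGAGGGACTTCCTGGc
Gstm1 reverse: tagtgagtgcccgtgtagcaag
Gstm3 reverse: ctgagtgacagcatggcaggg
The forward primers share 21 bases, and each matched transcripts of 3 genes exactly (Gstm1, Gstm3 and the pseudogene Gstm2-ps1), whereas each reverse primer matched 1 gene. Of all stretches of 100 bases in the annotated transcripts, 13.8% for Gstm3 and 5.86% for Gstm1 also occurred in another gene. This share was 1.10% for Gstm6 and 0.357% for Gstm2, and no such stretch was found for Gstm4, Gstm5, Gstm7, Gsta3, Txnrd1, Srxn1, Nqo1 or Cbr3. It was 80.6% for Gsta1, 46.9% for Gstp2, 28.4% for Gsta2, 25.2% for Gpx4 and 25.1% for Gstp1, and 12.3% for Me1 and 10.8% for Gstt3, so that the counts of these 7 genes and of Gstm3 are uncertain: reads that fit several copies may have been divided between them.

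The core of the antioxidant response element, TGACNNNGC, was searched on both strands of the RefSeq promoter windows (GRCm38.p6), which run from 250 bases before to 50 bases after a start site. At least 1 window held it for 11 of the 36 members with a window (30.6%), and for 3781 of all 27025 genes (14.0%). A gene can have several windows. Counted by window, 13 of 54 held it for members (24.1%) and 4071 of 32851 for all genes (12.4%). A match describes only the letters. The 250 bases upstream of Gsta3 and of Gclm are printed, since these members differed between Tom+ and Tom- hepatocytes, with the match in capitals.
Gsta3, chr1:21240335-21240584, plus strand: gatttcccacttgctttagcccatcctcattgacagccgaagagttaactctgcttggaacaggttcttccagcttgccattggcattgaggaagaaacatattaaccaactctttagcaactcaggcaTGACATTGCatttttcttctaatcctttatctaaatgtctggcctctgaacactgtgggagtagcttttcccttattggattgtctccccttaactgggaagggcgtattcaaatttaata
Gclm, chr3:122245307-122245556, plus strand: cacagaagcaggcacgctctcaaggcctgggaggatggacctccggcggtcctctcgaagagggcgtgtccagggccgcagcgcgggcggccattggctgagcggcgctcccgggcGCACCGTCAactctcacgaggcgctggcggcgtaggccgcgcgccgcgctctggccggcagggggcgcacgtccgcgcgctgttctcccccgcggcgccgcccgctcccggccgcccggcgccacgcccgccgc
In Gsta3 the match TGACATTGC lay from base -121 to base -113, counted from the start site. In Gclm it was on the opposite strand, read as GCACCGTCA on the gene's own strand, from base -134 to base -126. Txnrd1 held GCTTTGTCA from base -92 to base -84 of 1 of its windows, G6pdx held GCTCAGTCA from base -57 to base -49, Me1 held TGACTCAGC from base -6 to base 2, and Srxn1 held GCTAGGTCA from base 28 to base 36. The windows of Nqo1, Gstm1, Gstm3 and Cbr3 held no match.

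Total counts per library ranged from 37568584 to 75331424, and 3 counts corresponded to 0.0398 to 0.0799 counts-per-million (CPM). Hepatocyte markers took 103745 to 152915 CPM in sum and all 10 were counted in every group, whereas lymphocyte markers reached at most 0.380 CPM and neutrophil markers 1.18 CPM. The highest sums were 242 CPM for endothelial, 114 CPM for Kupffer cell and macrophage, and 107 CPM for stellate cell and fibroblast markers. They were 32.6 CPM for cholangiocyte markers and 4.26 CPM for the leukocyte marker. The reporter went against the labels of 2 oil libraries. It stood at 1793 CPM in the library labelled Tom- oil replicate 1 and at 135 CPM in the library labelled Tom+ oil replicate 2, against 143 and 157 CPM in the other Tom- oil libraries and 1225 and 1546 CPM in the other Tom+ oil libraries. In CCl4 the reporter was at 120 to 263 CPM in Tom- and at 1316 to 1369 CPM in Tom+ libraries. Calls of members in fits without a block are therefore given as labelled and also without these 2 libraries. For CCl4 against oil they are also given after the Tom+ and Tom- counts of a replicate number were summed, which does not depend on the fraction. Other results that rest on the labels of oil libraries, among them those with a block, are given as labelled only. CPM values here and below were normalised by TMM, except those that correspond to 3 counts. A gene was called higher or lower at an adjusted p-value under 0.05 in edgeR's quasi-likelihood test (Benjamini-Hochberg adjustment over 17121 genes) together with a log2 fold change beyond 0.75 in size.

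Per length, the most abundant members in Tom- oil hepatocytes were Gpx1, a glutathione peroxidase, at 3340 ± 161 transcripts-per-million (TPM, SD, n = 3) and Mgst1, a membrane-bound transferase, at 3241 ± 284 TPM. Gstp1 of the pi class followed at 2181 ± 379 TPM, and Gstm1 of the mu class at 890 ± 124 TPM. The levels of Gpx1 and Mgst1 did not differ beyond their spread. Gsta3, an alpha-class transferase, had 459 ± 30.3 TPM, and Gclc, the catalytic subunit of the enzyme that sets the rate of glutathione synthesis, 173 ± 9.52 TPM. Other members were low in these cells: Nqo1, a quinone reductase, had a mean of 13.6 TPM, Hmox1, a haem oxygenase, 4.90 TPM, G6pdx, the first enzyme of the pentose phosphate pathway, 3.07 TPM, and Cbr3, a carbonyl reductase, 0.178 TPM. In Tom+ CCl4 hepatocytes the order changed at the top. Gstm1, at 3204 ± 1256 TPM, stood beside Gstp1 (3141 ± 1197 TPM), Gpx1 (2925 ± 200 TPM) and Mgst1 (2886 ± 190 TPM), and these 4 did not differ beyond their spread. Gstm3 had 27.2 ± 10.2 TPM in Tom- oil and 782 ± 608 TPM in Tom+ CCl4.

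Of the 41 members, 38 passed the filter on low counts. The other 3 were Mgst2, Slc7a11 and Ggt1. Ggt1, which cleaves glutathione outside the cell, had 0 to 4 counts in every library. Slc7a11, the subunit of the cystine importer that supplies cysteine, had no count in any oil library, nor in Tom- CCl4 replicates 1 and 2. It had 4 counts in Tom- CCl4 replicate 3, and 10, 7 and 26 counts in the Tom+ CCl4 libraries. A count of 0 allows up to 3 expected counts, depth differed between libraries, and no test was run on these counts. Mgst2 had 6 and 2 counts in Tom+ oil replicates 1 and 2 and none in the other 10 libraries.

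**Figure D1:**
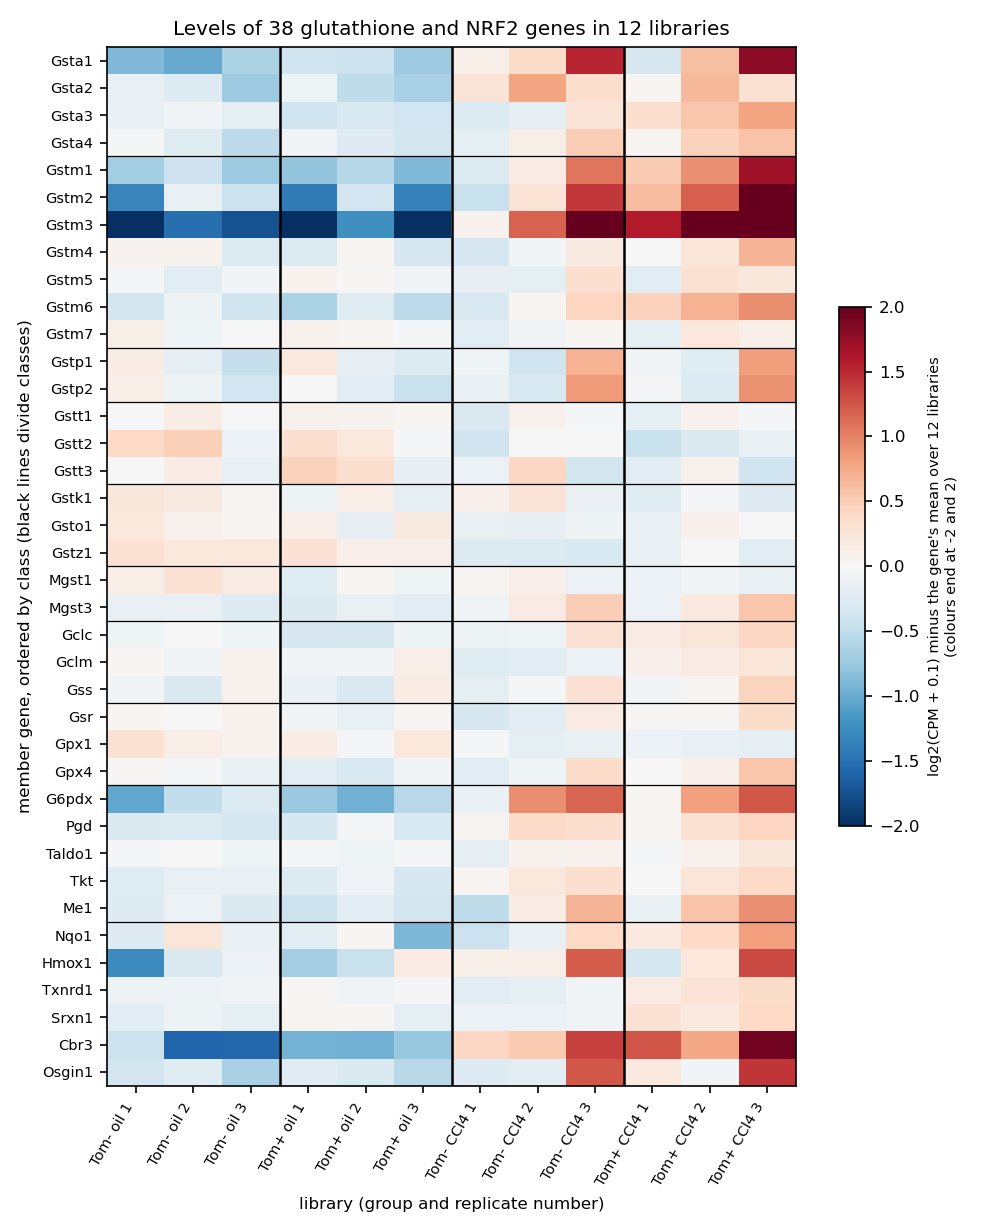
Heat map of the 38 tested members (rows, grouped by class with black lines between classes) in the 12 libraries (columns). Colour gives log2(CPM + 0.1) minus the gene's mean over the 12 libraries, and ends at -2 and 2. Gstm1, Gstm2 and Gstm3 are highest in Tom+ CCl4 replicate 3, with Tom- CCl4 replicate 3 above the other Tom+ CCl4 libraries. Replicate 3 stands highest for 28 of 38 members in Tom+ CCl4, a pattern not counted over all genes.

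A small set of these genes was higher in CCl4 than in oil, with more called in Tom+ than in Tom- hepatocytes. In Tom- hepatocytes, 4 of 38 tested members were called higher in CCl4 than in oil (Gsta2, Gstm3, G6pdx and Cbr3) and 0 lower, beside 6.33% and 1.59% of all genes. In Tom+ hepatocytes, 7 members were called higher (Gsta3, Gstm1, Gstm2, Gstm3, Gstm6, G6pdx and Cbr3) and 0 lower, against 2.9% and 2.34% of all genes. The median log2 fold change over the tested members was 0.11 in Tom- and 0.44 in Tom+ hepatocytes, beside 0.005 and 0.002 over all genes. At the adjusted p-value alone, 6 members were higher and 1 lower in Tom- (9.37% and 6.75% of all genes), and 13 were higher and 0 lower in Tom+ (4.91% and 4.56%). By library, 10 members had every Tom- CCl4 value above every Tom- oil value and 5 the reverse (19.3% and 16.8% of all genes), and in Tom+ 20 were above and 3 below (14.6% and 14.6%). The Tom- counts, out of 38 members, were thus near the shares of all genes. The log2 fold changes of all tested members are plotted for both fractions.

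**Figure D2:**
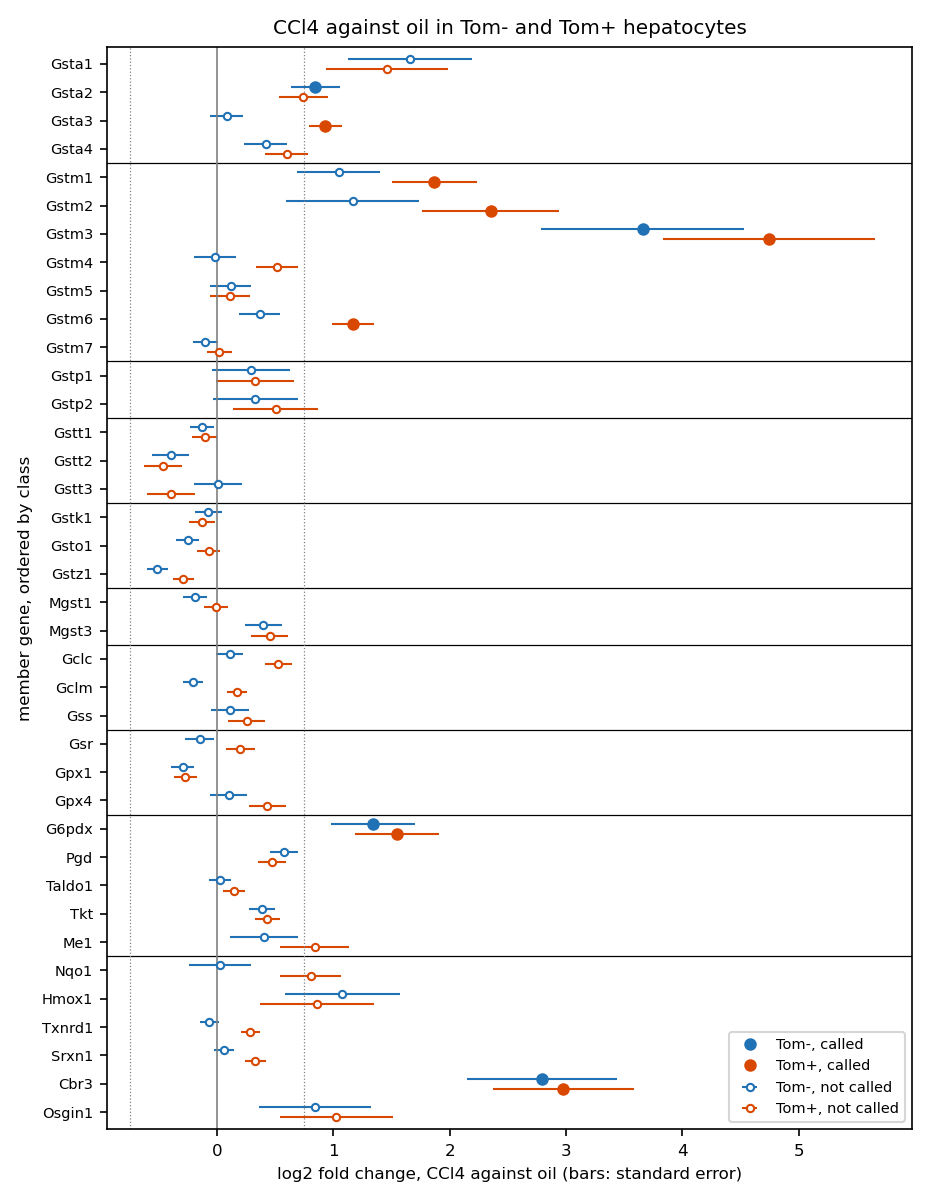
Log2 fold change of CCl4 against oil (horizontal axis, with its standard error) for each tested member (vertical axis), in Tom- (blue) and Tom+ (orange) hepatocytes; filled points passed both thresholds and dotted lines mark -0.75 and 0.75. Gstm3 has the largest change in both fractions (3.66 and 4.74), and the filled points are all on the right.

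The mu class held most of the members called in Tom+ hepatocytes. These cytosolic transferases detoxify electrophiles and products of lipid peroxidation, and the 7 measured genes lie together on chr3:107895821-108044894 (mm10). In Tom+ hepatocytes, 4 of 7 were called higher with a class median log2 fold change of 1.17, and in Tom- hepatocytes 1 of 7 with a median of 0.37.

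Gstm3 (chr3:107963696-107969283, minus strand) had 9.20, 19.4 and 16.4 CPM in the Tom- oil libraries and 58.7, 125 and 387 CPM in the Tom- CCl4 libraries. In Tom+ hepatocytes it had 12.7, 23.6 and 8.98 CPM in oil and 166, 267 and 783 CPM in CCl4. Every CCl4 library was above every oil library, and replicate 3 was the highest in both fractions. The log2 fold change was 3.66 ± 0.87 (SE, 12.6-fold, adjusted p = 0.0239) in Tom- and 4.74 ± 0.91 (26.8-fold, adjusted p = 0.0149) in Tom+. The call in Tom- was lost when Tom- oil replicate 1, 2 or 3 or Tom- CCl4 replicate 3 was left out (adjusted p up to 0.0821), and that in Tom+ when Tom+ oil replicate 1 was (0.069).

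Gstm1 (chr3:108012255-108017973, minus strand), the most abundant mu-class gene, had 522, 632 and 510 CPM in Tom- oil and 702, 945 and 1786 CPM in Tom- CCl4. In Tom+ hepatocytes the values were 491, 570 and 459 CPM in oil and 1207, 1589 and 2745 CPM in CCl4. The groups did not overlap in either fraction, but the spread among CCl4 libraries was wide. Gstm1 rose by 1.87 ± 0.36 on the log2 scale in Tom+ (3.65-fold, adjusted p = 0.012), a call that was lost without Tom+ oil replicate 1 (adjusted p = 0.0575). In Tom- the log2 fold change of 1.05 ± 0.36 did not pass (adjusted p = 0.074).

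Gstm2, another mu-class gene, had 22.5, 46.2 and 23.5 CPM in Tom+ oil and 92.2, 137 and 241 CPM in Tom+ CCl4, and it rose by 2.35 ± 0.59 on the log2 scale (5.10-fold, adjusted p = 0.0402). This call was lost without any 1 of 8 libraries (adjusted p up to 0.151), all but Tom- oil replicate 1, Tom- CCl4 replicates 1 and 3 and Tom+ CCl4 replicate 1. In Tom- hepatocytes it had 24.0, 54.4 and 44.6 CPM in oil and 44.3, 72.5 and 160.1 CPM in CCl4, which overlap, with an adjusted p of 0.20 and a log2 fold change of 1.17 ± 0.57. Gstm6 had 30.5, 39.7 and 32.8 CPM in Tom+ oil and 65.0, 76.3 and 89.9 CPM in Tom+ CCl4. It rose by 1.17 ± 0.18 on the log2 scale (2.25-fold, adjusted p = 0.00185), and no single library decided this call (adjusted p at most 0.0136). In Tom- hepatocytes Gstm6 had 36.5, 44.0 and 35.5 CPM in oil and 38.01, 48.6 and 63.2 CPM in CCl4, and its log2 fold change of 0.37 ± 0.18 did not pass (adjusted p = 0.174). The remaining mu-class genes Gstm4, Gstm5 and Gstm7 had log2 fold changes of -0.01, 0.12 and -0.10 in Tom- and of 0.51, 0.11 and 0.02 in Tom+, none past the test.

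The alpha class, which conjugates bulky electrophiles and reduces lipid hydroperoxides, had 1 of 4 genes called higher in each fraction, and not the same gene. Gsta3 (chr1:21240589-21265661, plus strand) had 697, 748 and 704 CPM in Tom+ oil and 1168, 1348 and 1585 CPM in Tom+ CCl4. It rose by 0.93 ± 0.14 on the log2 scale in Tom+ hepatocytes (1.91-fold, adjusted p = 0.00129), whichever library was left out (adjusted p at most 0.00983). In Tom- hepatocytes it had 839, 892 and 802 CPM in oil and 761, 818 and 1101 CPM in CCl4, which overlap, with a log2 fold change of 0.08 ± 0.14 (adjusted p = 0.727). Gsta2 (chr9:78331018-78355788, minus strand) had 13.8, 12.8 and 9.27 CPM in Tom- oil and 18.3, 26.6 and 19.5 CPM in Tom- CCl4, and rose by 0.85 ± 0.21 on the log2 scale (1.80-fold, adjusted p = 0.0174). The call was lost without Tom- oil replicate 3 or Tom- CCl4 replicate 2 (adjusted p up to 0.0739). In Tom+ it had 14.4, 10.8 and 9.74 CPM in oil and 15.7, 24.1 and 18.9 CPM in CCl4. Its log2 fold change of 0.74 ± 0.21 in Tom+ was just under the fold threshold (adjusted p = 0.042), so the fractions differ in the call and hardly in size. Gsta1 stood at 4.01 to 6.17 CPM in oil and at 6.51 to 28.5 CPM in CCl4, and Gsta4 at 37.1 to 52.0 CPM in oil and at 46.4 to 79.5 CPM in CCl4. Neither passed the test (adjusted p from 0.0609 to 0.142).

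The other transferase classes moved little. Gstz1, which isomerises maleylacetoacetate in tyrosine breakdown, had 578, 546 and 545 CPM in Tom- oil and 394, 391 and 384 CPM in Tom- CCl4. The groups were far apart for their spread, with a log2 fold change of -0.51 ± 0.09 (adjusted p = 0.00287), within the fold threshold. In Tom+ hepatocytes its log2 fold change was -0.29 ± 0.09 (adjusted p = 0.061). Class medians were 0.31 in Tom- and 0.41 in Tom+ for pi, -0.13 and -0.40 for theta, and -0.25 and -0.13 for kappa, omega and zeta, and 0 of these 8 genes was called in either fraction. Gstp1 ranged from 568 to 896 CPM in oil and from 589 to 1382 CPM in CCl4, with only the replicate 3 libraries, 1256 CPM in Tom- and 1382 CPM in Tom+, above the range of oil. Mgst1 and Mgst3 were not called either.

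The synthesis genes changed by less than the fold threshold. Gclc had 228, 231 and 269 CPM in Tom+ oil and 323, 339 and 385 CPM in Tom+ CCl4, which do not overlap, with a log2 fold change of 0.53 ± 0.12 (adjusted p = 0.0127, and up to 0.0634 without Tom+ oil replicate 1 or 2 or Tom+ CCl4 replicate 3). In Tom- hepatocytes it had 271, 285 and 270 CPM in oil and 268, 271 and 351 CPM in CCl4 (log2 fold change 0.11 ± 0.12, adjusted p = 0.557). The difference between the fractions, 0.42 on the log2 scale, did not pass without a block (adjusted p = 0.194) and passed the adjusted p-value with the replicate block described further on (0.43 ± 0.10, adjusted p = 0.0174). Gclm, the regulatory subunit of the same enzyme, had log2 fold changes of -0.21 ± 0.08 in Tom- and 0.17 ± 0.08 in Tom+, and Gss, which adds glycine, 0.11 ± 0.16 and 0.26 ± 0.16, and none passed. Of the recycling and peroxidase genes, Gpx1 did not pass the test in either fraction, with log2 fold changes of -0.29 ± 0.10 (adjusted p = 0.0582) and -0.27 ± 0.10 (adjusted p = 0.107). Gsr, which reduces oxidised glutathione, and Gpx4, which removes lipid hydroperoxides, were within 0.43 of 0 on the log2 scale.

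NADPH supply had the same called gene in both fractions. G6pdx (chrX:74409483-74429194, minus strand) had 2.85, 4.18 and 4.90 CPM in Tom- oil and 5.41, 11.4 and 13.5 CPM in Tom- CCl4. In Tom+ it had 3.54, 2.996 and 4.04 CPM in oil and 6.15, 10.6 and 14.2 CPM in CCl4. All 6 CCl4 libraries were above all 6 oil libraries. It rose by 1.34 ± 0.36 in Tom- (2.53-fold, adjusted p = 0.0277) and by 1.55 ± 0.36 in Tom+ (2.93-fold, adjusted p = 0.0208) on the log2 scale. Leaving out 1 library ended the call in Tom- for Tom- oil replicates 1 and 2 and Tom- CCl4 replicates 2 and 3 (adjusted p up to 0.1), and in Tom+ for Tom+ oil replicates 1 and 2 and Tom+ CCl4 replicates 2 and 3 (up to 0.0863). The next enzymes of the pathway changed within the fold threshold. Pgd, which makes the second NADPH, had log2 fold changes of 0.57 ± 0.12 (adjusted p = 0.00673) and 0.47 ± 0.12 (0.0243) in Tom- and Tom+, and Tkt, a transketolase, 0.39 ± 0.11 (0.0301) and 0.43 ± 0.11 (0.0252). Except for Pgd in Tom-, these passed in the full set but not without single libraries (adjusted p up to 0.122). Taldo1, the transaldolase, and Me1, the cytosolic malic enzyme, did not pass.

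Among the other NRF2-responsive genes only Cbr3 was called. It was counted 8, 2 and 2 times in Tom- oil, 8, 6 and 6 times in Tom+ oil, 18, 18 and 46 times in Tom- CCl4, and 73, 28 and 71 times in Tom+ CCl4. This is a low gene in every group, at 0.04 to 0.21 CPM in oil and 0.45 to 1.48 CPM in CCl4, but no CCl4 library overlapped an oil library. It rose by 2.79 ± 0.65 on the log2 scale in Tom- (6.93-fold, adjusted p = 0.0114), without Tom- CCl4 replicate 3 no longer past the threshold (0.0533), and by 2.98 ± 0.61 in Tom+ (7.87-fold, adjusted p = 0.00835), at most 0.0448 whichever library was left out. Nqo1 (chr8:107388225-107403206, minus strand) had 7.65, 10.9 and 8.25 CPM in Tom- oil and 6.77, 8.29 and 12.1 CPM in Tom- CCl4 (log2 fold change 0.02 ± 0.27, adjusted p = 0.965). In Tom+ it had 7.89, 9.44 and 4.90 CPM in oil and 10.5, 12.2 and 16.3 CPM in CCl4. The Tom+ groups did not overlap, yet the log2 fold change of 0.80 ± 0.26 did not pass (adjusted p = 0.0798). Txnrd1, the cytosolic thioredoxin reductase, and Srxn1, which restores over-oxidised peroxiredoxins, changed by 0.29 ± 0.08 (adjusted p = 0.0382) and 0.33 ± 0.09 (0.0311) on the log2 scale in Tom+ hepatocytes, within the fold threshold and not without each single library (adjusted p up to 0.172 and 0.14). Hmox1 and Osgin1, an oxidative stress-induced growth inhibitor, did not pass in either fraction, and their CCl4 values were led by replicate 3. Osgin1 had 109, 113 and 310 CPM in Tom- CCl4 and 150, 125 and 351 CPM in Tom+ CCl4, against 83.5 to 111 CPM in oil.

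**Figure D3:**
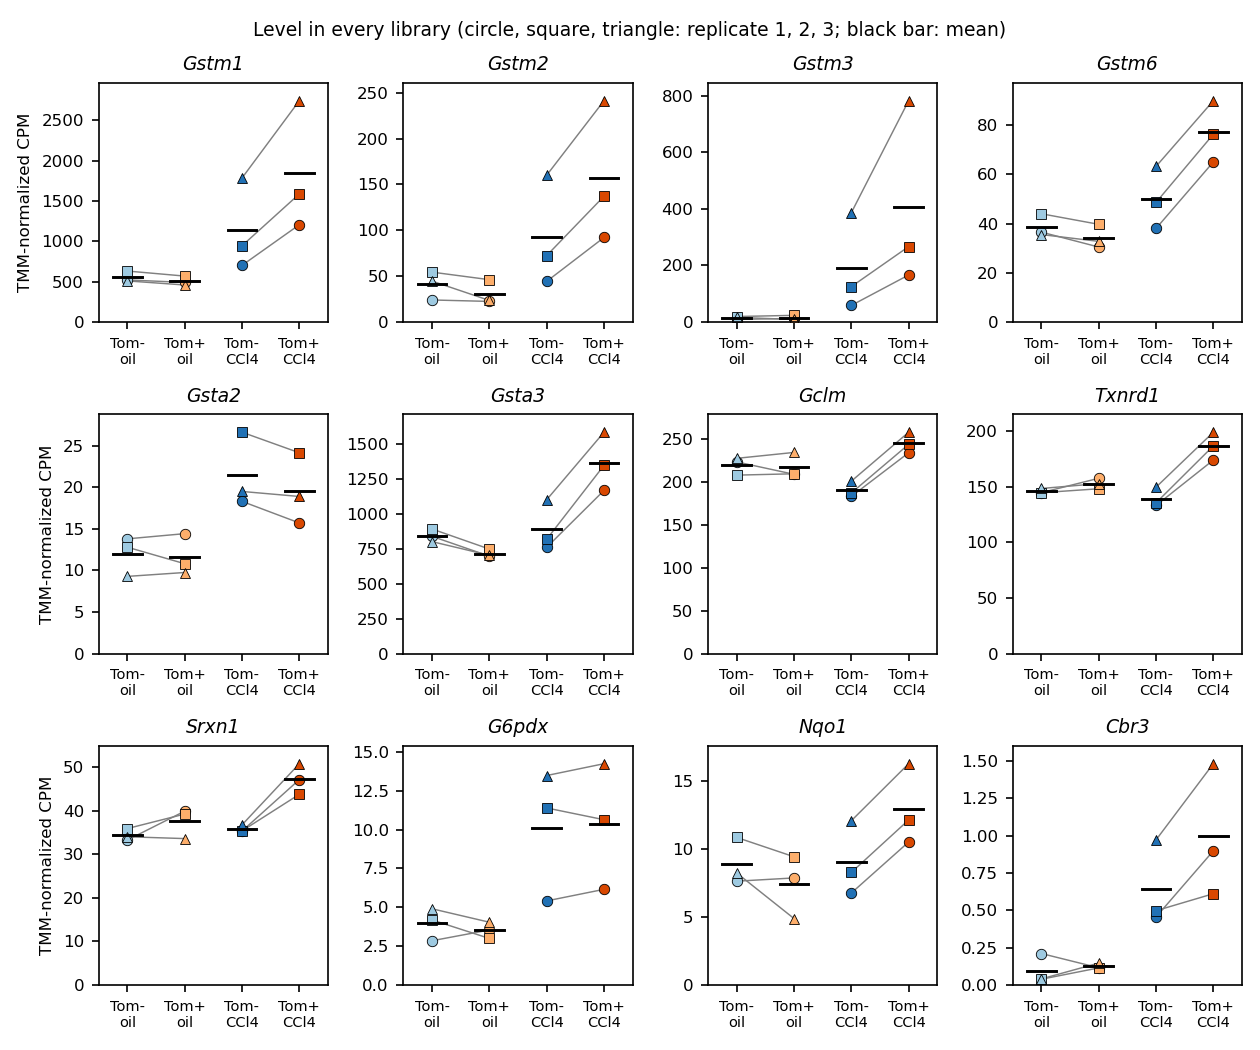
TMM-normalised CPM (vertical axis, linear) of 12 members in the 4 groups, each point a library, with circles, squares and triangles for replicates 1, 2 and 3, black bars for the group mean and lines joining Tom- and Tom+ libraries of a number. In CCl4 every line rises from Tom- to Tom+ for Gsta3, Gstm1, Gstm2, Gstm3, Gstm6, Gclm, Txnrd1, Srxn1 and Nqo1, and the vertical axes differ between panels.

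When the Tom+ and Tom- counts of a number were summed, so that 3 sums of CCl4 stood against 3 of oil whatever the fraction, 6 members were called higher and 0 lower, beside 3.34% and 1.44% of 17743 genes. These were Gstm3 with a log2 fold change of 4.31 ± 0.71 (adjusted p = 0.0301), Cbr3 with 2.98 ± 0.45 (0.0078), Gstm1 with 1.53 ± 0.29 (0.0274), G6pdx with 1.42 ± 0.30 (0.0338), Gstm6 with 0.85 ± 0.13 (0.0103) and Gsta2 with 0.77 ± 0.19 (0.0474). Cbr3 kept the call without any 1 number of a treatment (adjusted p at most 0.0314). Gstm6 lost it without oil 1 or CCl4 3 (at most 0.0502), Gstm1 and Gstm3 without oil 1, 2 or 3 or CCl4 2 (at most 0.108), and Gsta2 and G6pdx without any number other than CCl4 1 (at most 0.129). Without the 2 oil libraries whose reporter went against the label, 2 members were called in Tom- (Gsta2 at 0.96 and Cbr3 at 3.94 on the log2 scale) and 4 in Tom+ (Gsta3 at 0.97, Gstm3 at 5.22, Gstm6 at 1.29 and Cbr3 at 2.93). The share of all genes called was not computed for this refit. The calls of Gstm3 (3.41) and G6pdx (1.15) in Tom- and of Gstm1 (1.96), Gstm2 (2.78) and G6pdx (1.45) in Tom+ were then lost, with their direction the same. Over the 6 CCl4 and 6 oil libraries, 9 members had every CCl4 library above every oil library, namely Gsta1, Gsta2, Gstm1, Gstm3, Mgst3, G6pdx, Pgd, Tkt and Cbr3, beside 4.15% of all genes. Gstz1 and Gpx1 had every CCl4 library below every oil library, beside 3.49% of all genes.

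Markers of other liver cells moved with CCl4 too. The 9 stellate cell and fibroblast markers summed to 7.30 to 23.1 CPM in oil and to 52.1 to 107 CPM in CCl4, with 7 of 9 called higher in Tom- and 6 of 9 in Tom+. The 8 endothelial markers summed to 86.3 to 132 CPM in Tom- oil and to 223 to 242 CPM in Tom- CCl4 (7 of 8 called higher), and to 96.7 to 161 CPM in Tom+ oil and 116 to 157 CPM in Tom+ CCl4 (0 of 8). The 8 Kupffer cell markers summed to 13.4 to 99.0 CPM in oil and 43.9 to 114 CPM in CCl4, and none was called. Their part in the changes of the members was not tested, and in bulk samples fewer cells of a type and less RNA per cell cannot be told apart. The sum of all 41 members stood at 9041 to 10253 CPM in oil, at 9172 to 12127 CPM in Tom- CCl4 and at 10283 to 14486 CPM in Tom+ CCl4.

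Between Tom+ and Tom- hepatocytes of CCl4-treated mice, few members differed at the adjusted p-value, and these by less than the fold threshold. No member passed both thresholds in edgeR's test, nor in DESeq2 or limma-voom, where edgeR called 0.222% of all genes higher and 1.74% lower. At an unadjusted p under 0.05 there were 6 members and 3901 genes (22.8%). At the adjusted p-value alone, 4 members were higher in Tom+ (Gsta3, Gclm, Txnrd1 and Srxn1) and 0 lower, beside 1.96% and 3.83% of all genes. DESeq2 and limma-voom each found 5, for which no share of all genes was computed. The median log2 fold change was 0.13 over the tested members and 0.004 over all genes, and the class medians were 0.63 for mu, 0.41 for the other NRF2-responsive genes, 0.23 for synthesis, 0.19 for recycling and peroxidases, 0.17 for alpha, 0.13 for kappa, omega and zeta, 0.09 for pi, 0.03 for NADPH supply, -0.04 for microsomal and -0.17 for theta. By library, 6 members had all Tom+ CCl4 values above all Tom- CCl4 values (Gsta3, Gstm6, Gstz1, Gclm, Txnrd1 and Srxn1) and none the reverse, where 14.1% and 14.6% of all genes did.

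Txnrd1 (chr10:82833951-82897712, plus strand) had 133, 135 and 150 CPM in Tom- CCl4 and 174, 187 and 199 CPM in Tom+ CCl4. Gclm (chr3:122245557-122270732, plus strand) had 183, 187 and 201 CPM in Tom- CCl4 and 234, 244 and 258 CPM in Tom+ CCl4. Srxn1 (chr2:152105516-152111376, plus strand) had 35.3, 35.4 and 36.8 CPM in Tom- CCl4 and 47.2, 43.8 and 50.8 CPM in Tom+ CCl4. None of these groups overlapped, and the oil libraries of both fractions lay at 145 to 158 CPM for Txnrd1, 208 to 234 CPM for Gclm and 33.3 to 39.9 CPM for Srxn1. The log2 fold changes of Tom+ against Tom- in CCl4 were 0.42 ± 0.08 for Txnrd1 (adjusted p = 0.0113), 0.37 ± 0.08 for Gclm (0.0248), 0.40 ± 0.09 for Srxn1 (0.0208) and 0.61 ± 0.14 for Gsta3 (0.0236). Each rested in part on single libraries. Txnrd1 no longer passed without replicate 2 of either fraction (adjusted p up to 0.0708), and Gclm and Gsta3 without Tom- CCl4 replicate 1 or 2 or Tom+ CCl4 replicate 2 or 3 (up to 0.113 and 0.122). Srxn1 no longer passed without Tom- CCl4 replicate 1 or 2 or Tom+ CCl4 replicate 1 or 3 (up to 0.0971). The ratio of Tom+ to Tom- within a replicate number varied little between numbers: 1.28, 1.30 and 1.28 for Gclm, 1.31, 1.38 and 1.33 for Txnrd1, and 1.54, 1.65 and 1.44 for Gsta3.

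Tom+ and Tom- libraries of a number deviated together from their group means, so the contrast was also fitted with the replicate number within a treatment as a block. Then 15 members differed at the adjusted p-value, 14 higher and 1 lower in Tom+, where 7.94% of all genes were higher and 9.72% lower. Of these, Gstm2 and Gstm3 also passed the fold threshold, beside 0.736% of all genes. The mu class held 5 of the 15. Gstm1 was higher by 0.72 ± 0.06 on the log2 scale (adjusted p = 2.4e-05), with ratios of 1.72, 1.68 and 1.54 in the 3 pairs. Gstm6 was higher by 0.64 ± 0.07 (adjusted p = 0.0001), with ratios of 1.71, 1.57 and 1.42. Gstm2 was higher by 0.85 ± 0.15 (adjusted p = 0.0066), Gstm3 by 1.201 ± 0.26 (0.0364) and Gstm4 by 0.38 ± 0.08 (0.00725). Without the block none of these 5 passed (adjusted p from 0.0572 to 0.473), and their levels spread more between numbers than their ratios did. Gsta3 (0.62 ± 0.07, adjusted p = 6.4e-05), Gclm (0.37 ± 0.06, 0.00164), Txnrd1 (0.42 ± 0.06, 0.00061) and Srxn1 (0.40 ± 0.08, 0.00335) passed as before. Nqo1 was higher by 0.54 ± 0.14 (adjusted p = 0.0177), with ratios of 1.55, 1.47 and 1.35. Me1 (0.34 ± 0.07, adjusted p = 0.00335), Gsr (0.26 ± 0.07, 0.0174), Osgin1 (0.26 ± 0.07, 0.026) and Gclc (0.24 ± 0.07, 0.0374) were higher as well, and Gstk1, a mitochondrial and peroxisomal transferase, was lower by 0.25 (log2 fold change -0.25 ± 0.07, adjusted p = 0.031). Fewer members passed when a pair was left out, 9 without pair 1, 6 without pair 2 and 9 without pair 3, and past both thresholds 1, 0 and 2. Shares of all genes were not computed without a pair. In all, 24 of 38 members were higher in Tom+ in each of the 3 pairs and 5 were lower in each, beside 28.2% and 26.5% of all genes.

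**Figure D4:**
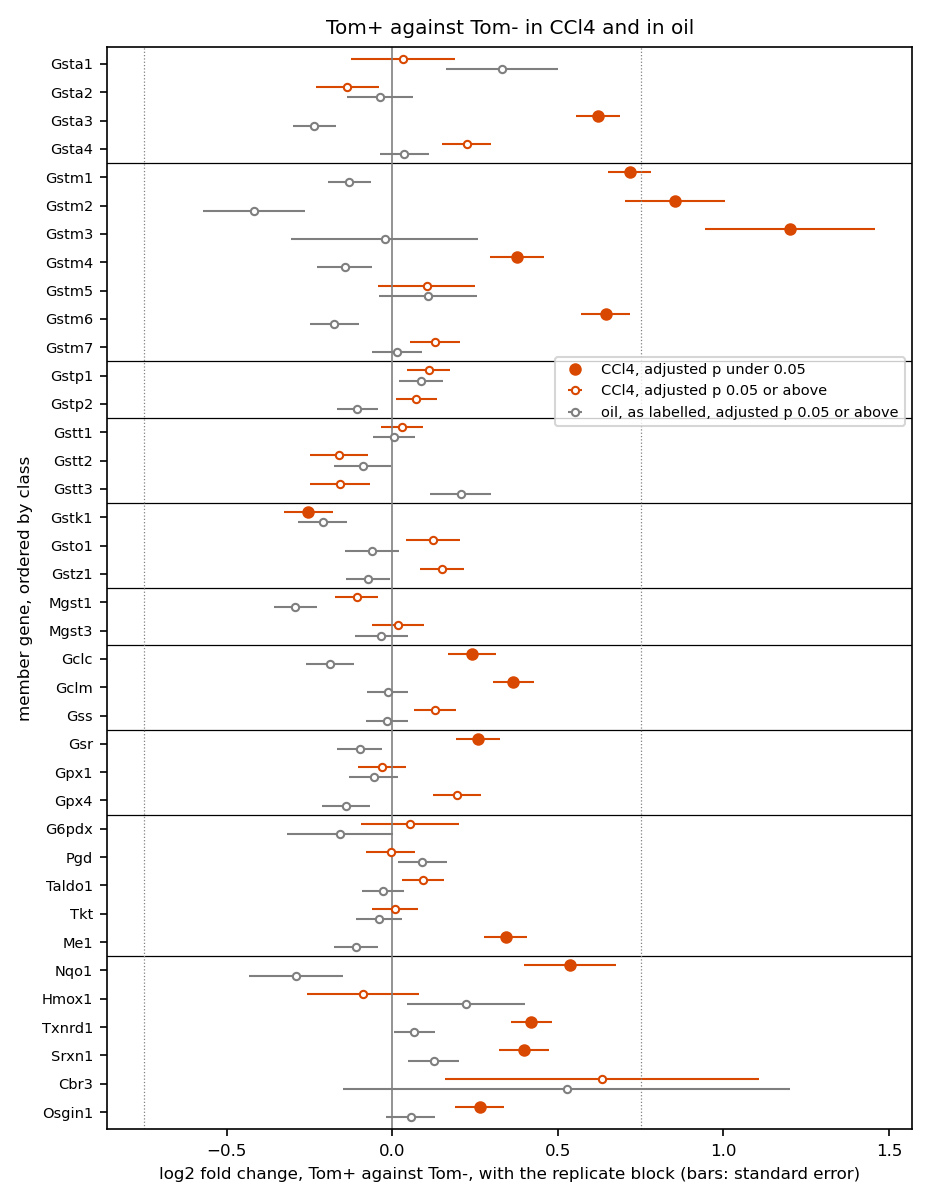
Log2 fold change of Tom+ against Tom- (horizontal axis, with its standard error, from the fit with the replicate number as a block) for each tested member, in CCl4 (orange, filled where the adjusted p-value was under 0.05) and in oil as labelled (grey). The 14 filled points on the right include 5 mu-class genes, and the 1 on the left is Gstk1. None of the oil points is filled, and they run from -0.42 to 0.53, with 25 below 0 and 13 above.

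Genes that mark the position of a hepatocyte in the lobule moved with the same contrast. The 20 zone 3 (central) genes summed to 3860, 5237 and 5669 CPM in the Tom- CCl4 libraries and to 6833, 8259 and 9242 CPM in the Tom+ CCl4 libraries, with a median log2 fold change of 0.81. Of them 2 were called higher in Tom+, and 10 with the block. The 20 zone 1 (portal) genes summed to 12655 to 15468 CPM in Tom- CCl4 and 8430 to 10393 CPM in Tom+ CCl4, with a median log2 fold change of -0.84 and 9 genes called lower (11 with the block). Endothelial markers, at 223 to 242 CPM in Tom- CCl4 and 116 to 157 CPM in Tom+ CCl4, had 4 of 8 genes called lower in Tom+. The part of lobular position and of other cells in the members' differences was not tested. In CCl4 against oil, 13 of the 20 zone 3 genes were called higher in Tom+ hepatocytes (median log2 fold change 1.61), and 2 higher and 1 lower in Tom- hepatocytes (median 0.44).

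**Figure D5:**
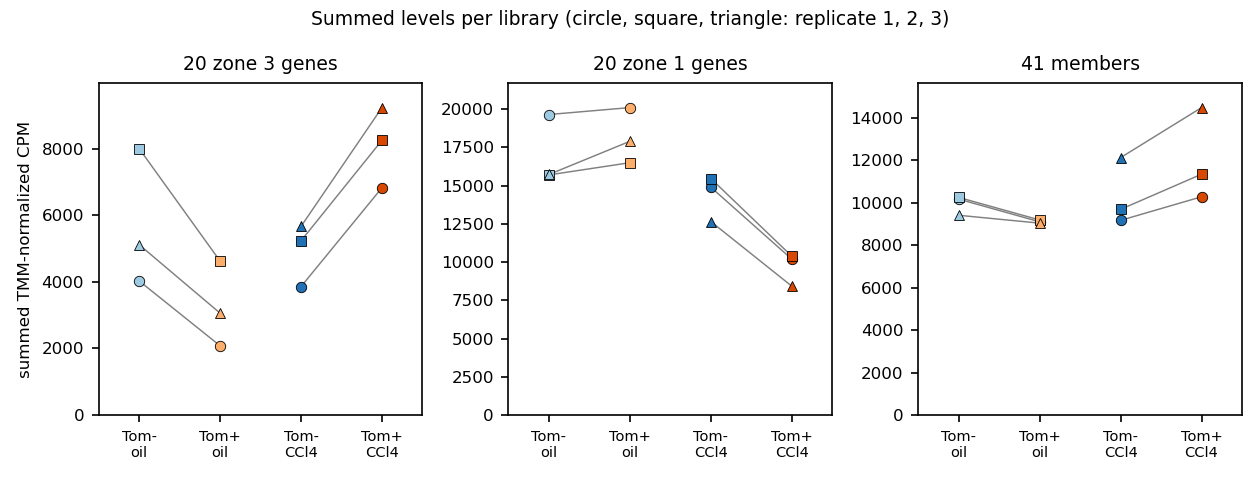
Summed TMM-normalised CPM (vertical axes) of 20 zone 3 genes, 20 zone 1 genes and all 41 members in each of the 12 libraries, by group. In CCl4 the Tom+ libraries are above the Tom- libraries for zone 3 (6833 to 9242 against 3860 to 5669) and below them for zone 1, and the sums of the members overlap between these groups.

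In oil, Tom+ and Tom- hepatocytes as labelled did not separate by these genes. No member and no gene at all passed edgeR's test (0.0%), while 1 member and 1198 genes (7.0%) had an unadjusted p under 0.05, and with the block 0.234% of all genes were called and no member was. DESeq2 and limma-voom called no member either. Without the 2 libraries whose reporter went against the label, 0 members were called. By library, Gsta3, Mgst1 and Gclc had all Tom+ oil values below all Tom- oil values and none was above, where 5.57% and 6.1% of all genes did. In oil pair 1 both libraries carried the reporter and in pair 2 neither did, so that only pair 3 compares cells with and without it. The oil ratios of Tom+ to Tom- were 0.831, 0.839 and 0.878 for Gsta3, 0.941, 0.901 and 0.900 for Gstm1, and 0.834, 0.903 and 0.922 for Gstm6. They were below 1 in each pair, though none passed the test, and 11 of 38 members were lower in Tom+ oil in all 3 pairs (15.4% of all genes) against 2 higher (17.4%). The zone 3 genes had a median log2 fold change of -0.57 in oil, with 18 of 20 fitted lower in Tom+, and their part in these ratios was not tested.

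Whether the Tom+ to Tom- difference changed between oil and CCl4 was tested directly. Gsta3 was the 1 member called (0.216% of all genes were called higher): its log2 fold change of Tom+ against Tom- was -0.24 ± 0.14 in oil and 0.61 ± 0.14 in CCl4, a difference of 0.85 ± 0.20 (adjusted p = 0.0493). This call stood at the threshold, and leaving out any 1 library other than Tom- CCl4 replicate 3 or Tom+ CCl4 replicate 1 ended it (adjusted p up to 0.145), as did leaving out both oil libraries in doubt (difference 0.89). With the block 5 members were called, beside 1.28% of all genes: Gsta3 at 0.86 ± 0.09 (adjusted p = 0.000117), Gstm1 at 0.85 ± 0.09 (0.000117), Gstm6 at 0.82 ± 0.10 (0.00032), Gstm2 at 1.27 ± 0.22 (0.00824) and Nqo1 at 0.83 ± 0.20 (0.0168). At the adjusted p-value alone the block gave 11 members, all higher, beside 5.3% of all genes higher. The other 6 were Gstm4, Gclc, Gclm, Gsr, Me1 and Txnrd1, with differences from 0.35 to 0.52, and Srxn1 was not among them. The fit with the block kept the oil labels, though only oil pair 3 compares cells with and without the reporter. It was not run without the oil libraries in doubt. The median difference over the tested members was 0.18, and that over the zone 3 genes 1.30.

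The CCl4 libraries of a fraction differed among themselves. Replicate 3 was the highest of 3 for 29 of 38 members in Tom- CCl4 and for 28 of 38 in Tom+ CCl4. The share over all genes was not computed, so this cannot be read as particular to the members. For Gstm3 the SD was 173 CPM around a mean of 190 CPM in Tom- CCl4 and 331 CPM around 405 CPM in Tom+ CCl4. For Gclm it was 9.33 CPM around 190 CPM and 12.02 CPM around 245 CPM. Gstm3, with its wide spread, passed for Tom+ against Tom- in CCl4 with the block alone, whereas Gclm passed with and without it.

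None of 12 NRF2 control genes, which encode NRF2, its relative NRF1 and proteins that bind or regulate them, was called by edgeR in any comparison above without a block. At the adjusted p-value alone 1 was higher and 3 lower for CCl4 against oil in Tom- hepatocytes, beside 9.37% and 6.75% of all genes. With the block, 3 were higher (Bach1, Cul3 and Sqstm1) and 1 lower (Mafg) in Tom+ against Tom- in CCl4 at the adjusted p-value, beside 7.94% and 9.72% of all genes. For the difference between treatments with the block, the oil libraries as labelled, 3 were higher (Bach1, Maff and Sqstm1), beside 5.3% of all genes. Of these Maff, a small partner protein of NRF2, also passed the fold threshold at 1.37 ± 0.40 (adjusted p = 0.041), beside 1.28% of all genes. Nfe2l2, which encodes NRF2, had a log2 fold change of 0.39 ± 0.11 (adjusted p = 0.0312) in Tom- and 0.36 ± 0.11 (0.0573) in Tom+ for CCl4 against oil, and -0.02 for Tom+ against Tom- in CCl4. Keap1 had -0.22 (adjusted p = 0.0773) and 0.08, and Sqstm1, whose protein sequesters KEAP1, -0.38 (adjusted p = 0.016) in Tom-. Of 21 other NRF2-linked genes tested, 3 were called higher in CCl4 in Tom- (Abcc1, Akr1b8 and Ephx1), beside 6.33% of all genes. In Tom+ 4 were called higher (Abcc2, Abcc4, Aox1 and Ephx1), beside 2.9%. None was called lower, where 1.59% and 2.34% of all genes were, and the median log2 fold changes were 0.31 and 0.65. Ephx1, the microsomal epoxide hydrolase, rose by 0.86 (adjusted p = 0.0364) in Tom- and by 1.54 (0.00373) in Tom+ on the log2 scale, and Abcc4, an exporter of conjugates and bile acids, by 2.95 in Tom+ (adjusted p = 0.00591). Between Tom+ and Tom- in CCl4 none of the 81 tested genes of the 4 pathway lists was called by edgeR without a block. At the adjusted p-value alone 5 were higher and 1 lower, beside 1.96% and 3.83% of all genes. With the block 2 were called higher, Abcc4 at 0.96 ± 0.14 (adjusted p = 0.00044) and Gpx3, a secreted glutathione peroxidase, at 0.91 ± 0.25 (0.0231), beside 0.736% of all genes. At the adjusted p-value alone the block gave 23 higher and 6 lower, beside 7.94% and 9.72% of all genes.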

How the data were processed

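The authors prepared strand-specific polyA libraries. Their processing notes name fastp (v0.23.2) for read quality, HISAT2 (v2.1.0) with the mm10 genome for alignment, and DESeq2 (v1.42.1). The study's methods name TPMcalculator for TPM values. The program that made the deposited counts, its strand setting and the annotation release are not given in the sources used here. The authors deposited 1 table of expected counts per gene, not normalised, with gene positions and exon lengths. Of the values above 0, from 30.4% to 32.9% per library had decimals. The design had assumed whole counts, so values were rounded. Identifiers were matched to symbols for 54723 of 54839 features. All sample columns were used.

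The fits used edgeR (v4.0.16, R v4.3.3) with TMM, filterByExpr (17121 genes kept, 17743 for the sums of Tom+ and Tom-), and the robust quasi-likelihood test over 12 libraries with a coefficient for each of 4 groups. A member was called at an adjusted p-value under 0.05 (Benjamini-Hochberg over all genes tested) and a log2 fold change beyond 0.75. The SE of a log2 fold change was back-calculated, as its size divided by the square root of the test's F statistic. TPM came from rounded counts and deposited lengths. The fit without a block was tested on simulated data for CCl4 against oil in Tom- and for Tom+ against Tom- in CCl4. The sums, the difference between treatments and the blocks were not tested in this way. Total counts had a median of 47910752.5 per library, and limits from 3 counts cover counting error only. Alternatives were DESeq2 (v1.42.0), limma-voom (v3.58.1), RLE and upper-quartile factors, other filters, the adjusted p-value alone, fewer libraries and replicate blocks. The fit at the adjusted p-value with a block, and the block on the 6 CCl4 libraries or without a CCl4 pair, were chosen after seeing the data.

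Tom+ and Tom- groups share replicate numbers in the labels, and libraries of a number were taken as pairs within a treatment because their deviations from the group means correlated in every pair (r from 0.353 to 0.449 in oil and from 0.415 to 0.613 in CCl4). The sources do not say that a pair came from 1 mouse.

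The members and gene lists were chosen with earlier results of these data known. Every member is accounted for. Values in every library are given for members called in a comparison and for Gstm1, Gstm3, Gsta3 and Nqo1, which the study measured by PCR, and the others by ranges and counts. Gclc, Gclm, Gstz1, Osgin1, Srxn1 and Txnrd1 were also given by library, a choice made after their values were seen. Promoter windows are from RefSeq (GRCm38.p6), found for 36 members. Plots were made in matplotlib (v3.10.9) under Python (v3.11.15).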

Additional observations from a re-analysis of the deposited data

Results flagged for a closer look

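The difference of Tom+ against Tom- between CCl4 and oil was past both thresholds for Gsta3, at 0.85 ± 0.20 on the log2 scale (edgeR's test of the difference itself, adjusted p = 0.0493). Tom+ was above Tom- in 3 of 3 CCl4 pairs, with ratios of 1.54, 1.65 and 1.44, and below it in 3 of 3 oil pairs, with ratios of 0.831, 0.839 and 0.878. Both libraries of oil pair 1 carried the reporter (1793 and 1546 CPM) and neither of pair 2 did (157 and 135 CPM), so only oil pair 3 compares cells with and without it. Without the 2 oil libraries whose reporter went against the label the call was lost (difference 0.89). Over all alternatives the adjusted p-value ran from 0.000117 with the replicate block to 0.145 without 1 library. The zone 3 genes had a median difference of 1.30 in the same comparison, and their part in the result was not tested.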

How the results depend on the processing

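With no fold threshold, 7 members differed in CCl4 against oil in Tom-, 13 in Tom+ and 10 in the sums, and 4 in Tom+ against Tom- in CCl4, where the counts past both thresholds were 4, 7, 6 and 0. Without the 2 oil libraries whose reporter went against the label these were 2 in Tom- and 4 in Tom+, and 0 for the difference between treatments, for which 1 member was called. Without a filter the sums gave 3. The difference gave 0 with RLE factors, 0 with upper-quartile factors and 2 with DESeq2. Leaving out 1 library gave 1 to 6 members in Tom-, 4 to 10 in Tom+, 1 to 8 in the sums, 0 to 2 for Tom+ against Tom- in CCl4, 0 to 9 for the same at the adjusted p-value alone (4 with all libraries, 2 in a fit of the 6 CCl4 libraries), 0 to 0 in oil and 0 to 2 for the difference. The causes were not tested. No member past the adjusted p-value in a comparison changed direction there under any alternative, and DESeq2 called 6, 9 and 9 members and limma-voom 3, 6 and 4 in CCl4 against oil in Tom-, Tom+ and the sums. Shares over all genes were computed only for edgeR with TMM and filterByExpr on all libraries, without a block or with the block within treatment. Member counts under other settings have no such share beside them, so they cannot be set against all genes. Cbr3 had no value where at least 10 counts were asked of every library.

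With the replicate block within treatment, 5 members were called for the difference, with the oil libraries as labelled. In Tom+ against Tom- in CCl4, 2 were called (2 on the 6 CCl4 libraries alone, 1, 0 and 2 without pair 1, 2 and 3). At the adjusted p-value alone the block gave 15, 17 on the 6 libraries, and 9, 6 and 9 without pair 1, 2 and 3. Gstm3 in Tom+ against Tom- in oil, near 0, turned from 0.007 to -0.02 with the block. A block on the number over both treatments gave 6, 7 and 6 members in CCl4 against oil in Tom-, Tom+ and the sums, 0 in Tom+ against Tom- in CCl4 and 2 for the difference. Across treatments, libraries of a number correlated less than within a treatment (r from 0.032 to 0.299 in Tom+ and from 0.037 to 0.074 in Tom-). Libraries of different numbers had r from -0.265 to 0.169 in Tom+ and from -0.093 to 0.039 in Tom-. These ranges overlap, and a link by number across treatments was not tested.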

Other observations

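Among other glutathione genes, of which 28 of 33 were tested, Gpx3, a secreted glutathione peroxidase, was called higher in CCl4 than in oil in both fractions. It was low, at 0.26 to 0.61 CPM in oil, 1.14 to 2.05 CPM in Tom- CCl4 and 1.69 to 3.86 CPM in Tom+ CCl4, without overlap between oil and CCl4. The log2 fold change was 2.15 ± 0.43 in Tom- (edgeR's adjusted p = 0.00567) and 3.02 ± 0.43 in Tom+ (0.000839). Bhmt, which remethylates homocysteine, was called lower in Tom- at a log2 fold change of -0.87 ± 0.26 (adjusted p = 0.0386), and had -0.80 ± 0.26 (adjusted p = 0.0724) in Tom+. Cdo1, which oxidises cysteine and so draws on the same supply as glutathione, differed in Tom+ against Tom- between the treatments by 0.80 ± 0.17 (adjusted p = 0.0407). It had 917, 913 and 923 CPM in Tom- CCl4 and 1278, 1431 and 1250 CPM in Tom+ CCl4.

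Of 20 other peroxide and thioredoxin genes, Sod3, the extracellular superoxide dismutase, was the 1 called, higher in CCl4 in both fractions. It had 0.93 to 3.40 CPM in oil and 4.32 to 8.77 CPM in CCl4, with log2 fold changes of 2.74 ± 0.40 in Tom- (edgeR's adjusted p = 0.00136) and 1.60 ± 0.38 in Tom+ (0.0211). In CCl4 against oil, stellate cell and fibroblast markers, at 7.30 to 23.1 CPM in oil and 52.1 to 107 CPM in CCl4, moved with both Gpx3 and Sod3. In Tom+ against Tom- in CCl4 with the block, Gpx3 was higher by 0.91, whereas 7 of these 9 markers were fitted lower and 2 higher. The study lists Gpx3 among genes higher in zone 3 Tom+ hepatocytes in its single-cell data, and measured it by PCR. The part of stellate cells and fibroblasts was not tested.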
